A study of Mus musculus with 15 samples.

Results

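Macrophages and other leukocytes of the embryonic mouse pancreas were followed through 33 genes that mark them. The genes were taken by symbol: each of the 33 was matched, through the GENCODE mouse M21 annotation, to 1 row of a table of read counts that held 25292 genes in the mm10 genome build. RNA sequencing of polyadenylated RNA was carried out on 15 libraries in 5 groups of 3, all of strain C57/Bl6J, and the methods of the study state that up to 3 pups or explants of the same kind were pooled for each library. Fresh pancreata came from wild-type (wt) and S1pr2 null embryos of 14.5 days post coitum (dpc), and the S1pr2 null allele is one in which a Neo cassette disrupts exon 1 of S1pr2, a receptor for the signalling lipid sphingosine-1-phosphate. Wild-type explants of that stage, which the methods describe as dorsal buds, were kept for 2 days at the air-liquid interface in a serum-free medium, untreated (control), with 15 μM JTE013, an antagonist of S1pr2 (JTE), or with 15 μM JTE013 and 50 ng/ml connective tissue growth factor (JTE with CTGF). The cultured explants have no circulation, so that no blood cells reach them from outside after dissection. Whether cells already in the bud divided or matured in culture was not tested.

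Macrophages reach embryonic organs from the yolk sac and the fetal liver, settle there before birth, and clear dying cells. They depend on the receptor Csf1r and on the transcription factor Spi1 (PU.1), they carry Fc receptors that signal through the ITAM adaptors Tyrobp and Fcer1g, and they make the 3 chains of C1q, the protein that starts the classical complement cascade. In many tissues Cx3cr1, Mrc1, Lyve1 and Cd163 mark resident macrophages, while the chemokines Ccl3 and Ccl4 are made on activation.

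All 33 members had enough reads to be tested, among 16245 genes. Library totals were 11402804 to 13828737 reads, and the members together held 0.0306% to 0.11% of them, so that counting error matters for members with few reads. The libraries labelled S1pr2 null held 1368 to 1609 reads of S1pr2 and the wt libraries 796 to 858, so that the label cannot be checked by a loss of reads. An allele with a disrupted exon can still be transcribed, and read counts say nothing of the protein. The study reports a western blot in which S1pr2 null pancreata of the same stage lacked the S1pr2 protein. It does not state whether the blotted pancreata were those sequenced. The libraries are named below by their label. The library JTE 3 stood apart from JTE 1 and JTE 2 (chi-square per gene 17.2 and 23.2, against 3.01 between JTE 1 and JTE 2) and was the highest of its group in 22 of the 32 members with reads there. JTE with CTGF 2 was likewise the highest of its group in 25 of 32. Counts of members called are given with and without JTE 3 where they concern it. Of Csf1r, 17.8% of the exon bases also lie in exons of Hmgxb3 on the other strand, and of Lcp1 3.27% lie in exons of Gm15628. The sources do not state whether the counting used the strand. In whole tissue, fewer cells of a type and less RNA per cell cannot be told apart, and this holds for every result below.

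The promoters of 23 members were found in the RefSeq table of windows from 250 bases before to 50 bases after the start of transcription (GRCm38.p6). The letters GAGGAA, a form of the site that PU.1 can bind, were present on either strand in 16 of these 23 windows (69.6%) and in 28.3% of 27025 windows of all genes. The longer form GAGGAAGT, which contains the shorter one, was present in 4 of 23 (17.4%, against 3.28% of all windows), and TGTGGT, a form of the RUNX site, in 8 of 23 (34.8%, against 16.9%). TGAGTCA was present in 1 of 23 (5.17% of all windows). TCACGTGA and a consensus NF-kB site were present in 0 of 23, with 1.01% and 0.144% of all windows. A match is a description of letters and not of binding, and 1 window, the first in the order of the RefSeq table, was used for each gene. The windows of 5 members are shown because their genes span the responses described below. Fcrls and Cx3cr1 had the deepest falls with JTE013, and Mrc1 fell both in culture and with JTE013. Cd53 did not pass the test with JTE013, and Ccl3 rose. Capitals mark GAGGAA or TGTGGT, or their reverse complements.
Fcrls, chr3:87263475-87263774, minus strand: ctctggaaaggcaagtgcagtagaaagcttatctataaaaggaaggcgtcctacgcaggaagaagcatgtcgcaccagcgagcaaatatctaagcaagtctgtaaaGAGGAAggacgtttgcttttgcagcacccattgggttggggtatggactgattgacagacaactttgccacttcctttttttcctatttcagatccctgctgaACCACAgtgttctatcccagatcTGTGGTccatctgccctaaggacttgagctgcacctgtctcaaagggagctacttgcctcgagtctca
Cx3cr1, chr9:120068247-120068546, minus strand: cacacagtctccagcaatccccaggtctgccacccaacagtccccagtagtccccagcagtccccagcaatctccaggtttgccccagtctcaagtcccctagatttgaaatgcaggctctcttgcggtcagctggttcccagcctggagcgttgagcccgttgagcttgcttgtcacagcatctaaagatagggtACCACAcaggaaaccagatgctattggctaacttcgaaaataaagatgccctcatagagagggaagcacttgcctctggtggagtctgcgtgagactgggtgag
Mrc1, chr2:14229164-14229463, plus strand: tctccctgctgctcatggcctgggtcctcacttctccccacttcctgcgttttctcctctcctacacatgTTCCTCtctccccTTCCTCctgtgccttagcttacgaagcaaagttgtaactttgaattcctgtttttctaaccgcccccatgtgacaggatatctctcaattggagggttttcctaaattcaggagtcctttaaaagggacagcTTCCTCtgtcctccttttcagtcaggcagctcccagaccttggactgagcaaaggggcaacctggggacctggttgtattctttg
Cd53, chr3:106790100-106790399, minus strand: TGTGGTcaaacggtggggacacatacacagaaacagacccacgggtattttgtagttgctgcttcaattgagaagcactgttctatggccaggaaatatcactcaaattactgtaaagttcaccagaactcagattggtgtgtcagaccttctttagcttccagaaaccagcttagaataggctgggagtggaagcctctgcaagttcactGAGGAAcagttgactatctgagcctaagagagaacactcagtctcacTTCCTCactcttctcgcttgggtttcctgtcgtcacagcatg
Ccl3, chr11:83649329-83649628, minus strand: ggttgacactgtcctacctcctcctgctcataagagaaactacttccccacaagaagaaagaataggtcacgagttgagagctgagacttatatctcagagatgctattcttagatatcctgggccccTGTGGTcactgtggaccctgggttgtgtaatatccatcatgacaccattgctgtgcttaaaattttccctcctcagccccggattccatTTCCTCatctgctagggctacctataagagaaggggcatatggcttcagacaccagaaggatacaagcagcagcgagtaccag
The Fcrls window held a GAGGAA 144 bases before the start and TGTGGT matches 41 and 18 bases before it, while that of Cx3cr1 held none of the first and 1 of the second. Mrc1 held 3 GAGGAA matches, Cd53 held 2, and Ccl3 held 1. In these 5 windows neither sequence thus separated members with a fall that passed the test from the others.

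In wt pancreas C1qa and C1qb were the most abundant members per length. C1qa reached 31.1 ± 3.53 (SD, n = 3) RPKM (reads per kilobase of exon, relative to the library total), C1qb 23.7 ± 0.618, the adaptor Tyrobp 19.7 ± 0.785 and the lysozyme gene Lyz2 19 ± 1.2. Tyrobp and Lyz2 did not differ beyond their spread. At the other end lay Ccl3 at 0.414 ± 0.0108, the haemoglobin scavenger receptor gene Cd163 at 0.331 ± 0.136 and Ccl4 at 0.0813 ± 0.0704. Of the defining macrophage markers, Csf1r held 654, 554 and 606 reads and the F4/80 gene Adgre1 146, 125 and 160, so that both were read in fresh tissue. These 2 genes do not bear out the label for the other members, such as Ccl3 and Ccl4 with their few reads. Lymphoid genes were sparse there, and their summed level was 98.54 to 113 normalised reads: the T cell gene Cd3e held 34, 48 and 31 reads, while Cd3d held 0, 2 and 0 and Cd8a 0, 0 and 1.

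**Figure D1:**
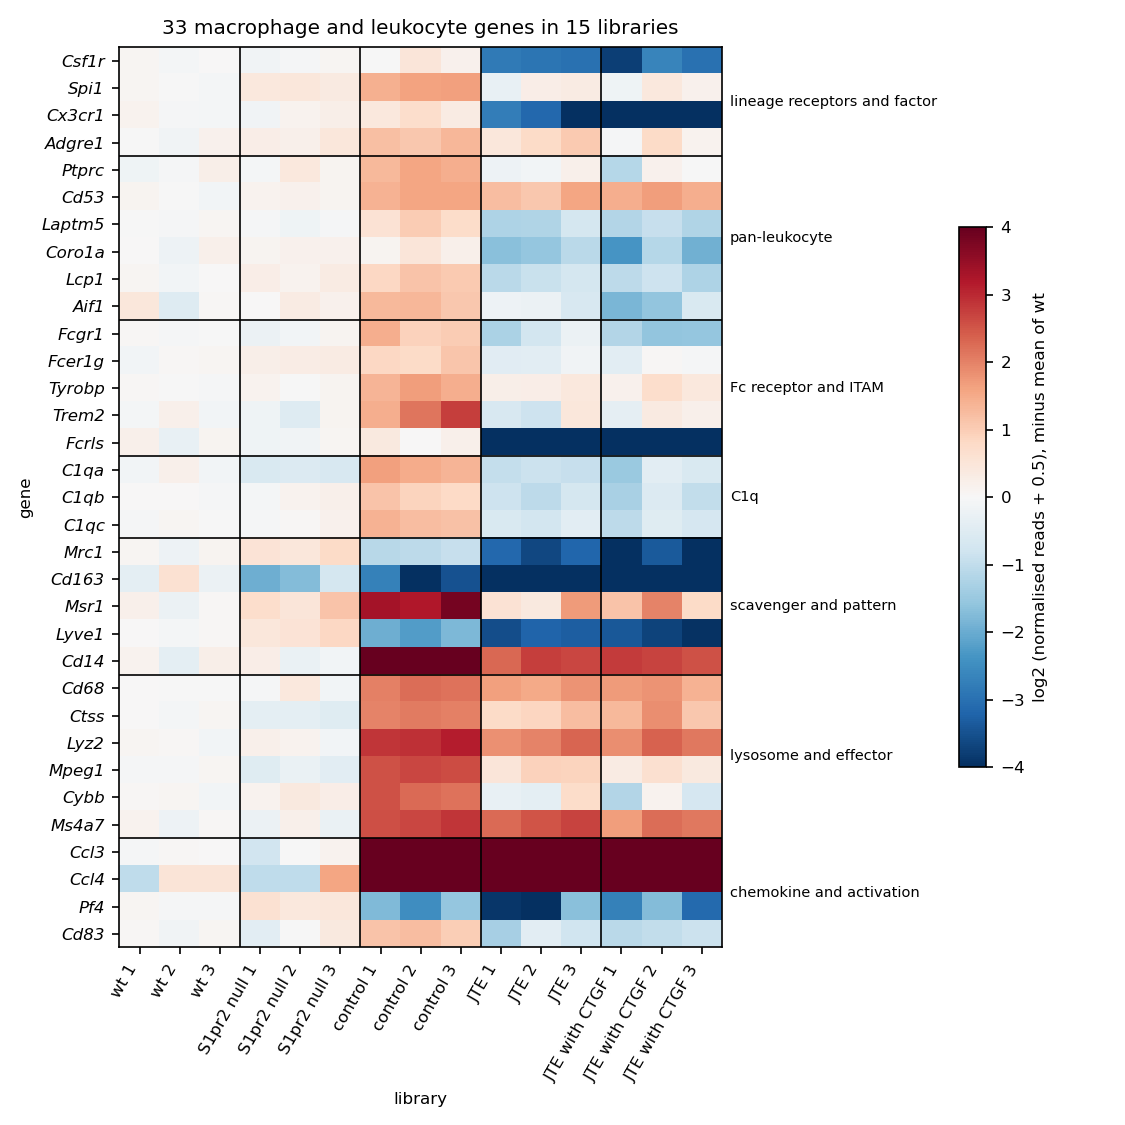
Heat map of the 33 members (rows, by role) in the 15 libraries (columns). Colour gives log2 (normalised reads + 0.5) minus the mean of the 3 wt libraries, and values beyond 4 in either direction take the end colour; most rows are red in the control explants and paler or blue in both JTE groups, while Mrc1, Cd163, Lyve1 and Pf4 are blue in every explant.

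The first comparison was that of control explants with fresh wt pancreas. It spans 2 days, the culture, and possibly a different part of the organ, which cannot be told apart. Of the 33 members 26 rose and 4 fell (edgeR quasi-likelihood test, adjusted p below 0.05), with a median log2 fold change of 1.27; of all genes tested, 28.5% rose and 29.3% fell (57.8% in either direction). Normalised reads are reads scaled so that every library has the same effective size, and fold changes are from the same fit of all 15 libraries.

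The strongest rises were those of some members of the chemokine, scavenger and lysosome groups. The first of these groups also held Pf4, and the second Cd163, Lyve1 and Mrc1, which fell, as given below. Ccl4, a chemokine of activated macrophages, went from 0, 1 and 1 reads in wt to 41, 44 and 56 in control explants, a ratio of 78.4 with a counting interval (95%) of 21.3 to 654. Its neighbour Ccl3 went from 4, 4 and 4 to 68, 76 and 94 reads (log2 fold change 4.42 ± 0.25 SE). Neither gene overlapped between the groups, nor did any of the 26 members that rose, which in the higher direction was so for 30.7% of all genes. Cd14, the lipopolysaccharide co-receptor, rose by 4.26 ± 0.15 on the log2 scale, from 40, 26 and 41 to 602, 588 and 659 reads. The scavenger receptor gene Msr1 rose by 3.47 ± 0.32. All 6 members of the lysosome and effector group rose, by 2.02 (Ctss, a protease) to 2.98 (Lyz2), and included the pore-forming protein gene Mpeg1 (2.61 ± 0.10) and Ms4a7 (2.71 ± 0.19).

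The lineage genes (Csf1r, Spi1, Cx3cr1 and Adgre1), the pan-leukocyte genes and the C1q genes rose less, none by more than 1.56 on the log2 scale. The Fc receptor and ITAM genes ran from 0.20 (Fcrls) to 2.22 ± 0.31 (Trem2). Spi1 rose by 1.56 ± 0.15, Ptprc (CD45) by 1.44 ± 0.21 and the tetraspanin gene Cd53 by 1.52 ± 0.14, and the 3 C1q genes by 0.95 (C1qb), 1.27 (C1qc) and 1.49 (C1qa). Csf1r (0.23 ± 0.12, adjusted p = 0.126), the Fc receptor-like gene Fcrls (0.20 ± 0.14, adjusted p = 0.242) and Coro1a (0.25 ± 0.18, adjusted p = 0.228) did not pass the test, and the libraries overlapped in each. Csf1r read 654, 554 and 606 in wt and 525, 782 and 609 in control explants. Without control 1 its difference was 0.34, with an edgeR adjusted p of 0.0348.

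The 4 members that fell with culture are known markers of resident macrophages or, for Pf4, of platelets as well. Such markers did not all fall: Fcrls did not pass the test, and Cx3cr1 rose (0.49 ± 0.14, edgeR adjusted p = 0.00716), a call lost without control 2. Cd163 held 14, 27 and 15 reads in wt and 2, 0 and 1 in control explants (ratio 16.8, counting interval 5.46 to 83.9). Lyve1, a hyaluronan receptor also carried by lymphatic endothelium, fell from 425, 372 and 417 to 92, 80 and 103 reads (−1.99 ± 0.12). Pf4 fell from 137, 118 and 118 to 32, 20 and 38 (−1.89 ± 0.36), and the mannose receptor gene Mrc1 from 690, 530 and 676 to 257, 281 and 295 (−1.03 ± 0.12). The control and wt libraries did not overlap in any of these 4 genes, nor, in the lower direction, in 33.1% of all genes. In the same comparison 7 of 7 lymphatic genes tested and 7 of 8 megakaryocyte and platelet genes fell, beside 29.3% of all genes. The platelet chemokine gene Ppbp went from 24, 18 and 21 reads to 1, 0 and 0. The part of lymphatic endothelium and of platelets in the falls of Lyve1 and Pf4 was not tested.

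The second comparison asked what the S1pr2 antagonist did to the explants. With JTE013, 27 of the 33 members fell relative to control explants, 1 rose and 5 did not pass the test, against 26.2% of all genes tested that fell and 25.9% that rose (52.2% in either direction). The median log2 fold change of the members was −1.68, or −1.67 without Cd163, which held 2, 0 and 1 reads in control explants and 0 in all JTE libraries and so allows no fold. That of all genes was 0. In the 27 members that fell the libraries of the 2 groups did not overlap, which was also so, in the lower direction, for 28.3% of all genes. Without JTE 3, 29 members fell and 1 rose. With the criterion that the study used (a protein-coding gene, adjusted p of at most 0.1, mean above 100 normalised reads in either group, fold below 0.6 or above 1.6), 24 members were lower and 0 higher, with 8.25% of all genes past it in either direction.

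**Figure D2:**
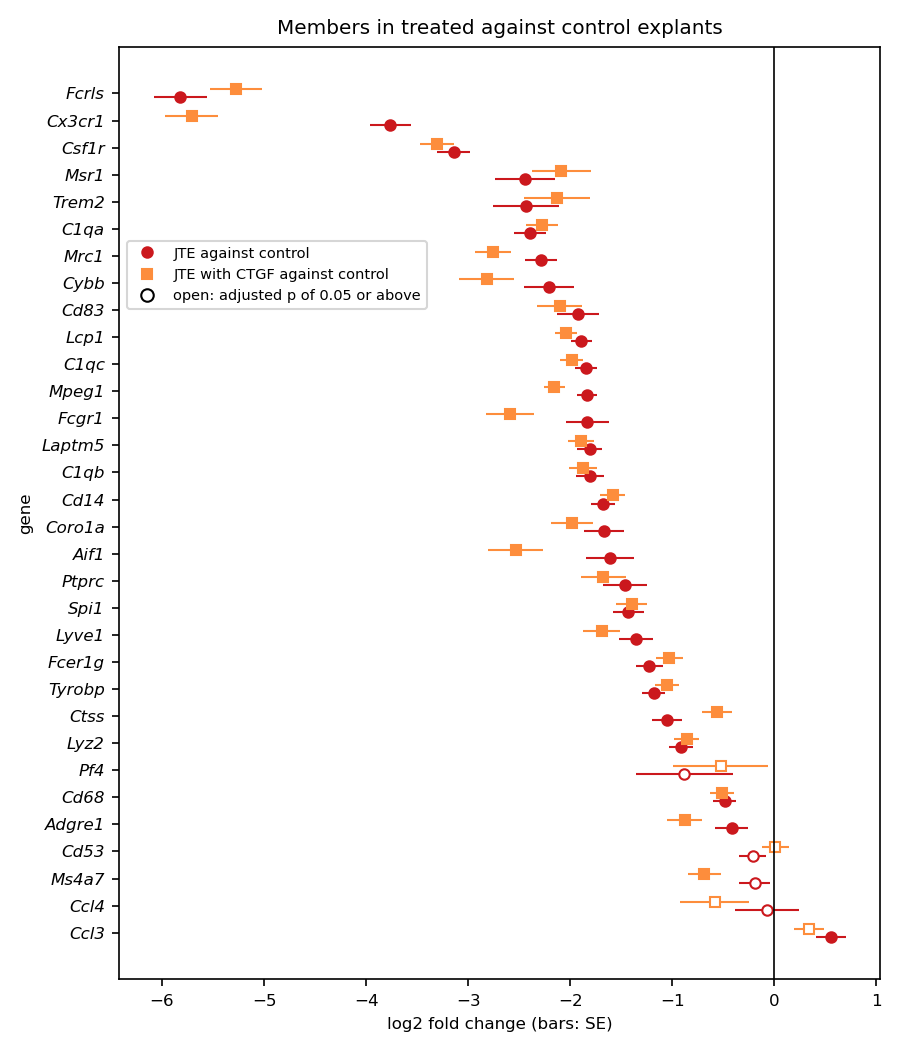
Log2 fold change of 32 members (rows) in JTE explants and in JTE with CTGF explants, each against control explants; bars are SE and open symbols did not pass an adjusted p of 0.05. Both sets of points share the control libraries; Fcrls lies at −5.82 and −5.28 and Ccl3 at 0.55 and 0.34, and Cd163 is left out because it had 3 reads or fewer in each group.

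The deepest falls were in receptors that mark resident macrophages and microglia. Fcrls went from 230, 186 and 203 reads in control explants to 4, 5 and 2 in JTE explants, 56.5-fold lower (log2 fold change −5.82 ± 0.26 SE, edgeR adjusted p = 2.52e-11). Cx3cr1, the fractalkine receptor gene, went from 368, 470 and 351 to 40, 32 and 18 reads (−3.76 ± 0.20, edgeR adjusted p = 2.14e-10). Csf1r, the receptor on which macrophage survival depends, went from 525, 782 and 609 to 75, 73 and 76 reads (−3.14 ± 0.16, edgeR adjusted p = 1.72e-10). None of these 3 genes overlapped between the groups. Fcrls and Csf1r had not passed the test between wt and control explants and Cx3cr1 had risen by 0.49, and their JTE counts lay below the 158 to 654 reads they held in wt.

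The other lineage genes fell less. Spi1 went from 186, 220 and 217 to 56, 85 and 99 reads (−1.43 ± 0.15), and was thus back near its wt counts of 85, 76 and 74. Adgre1 went from 288, 279 and 322 to 174, 224 and 295 (−0.42 ± 0.16, edgeR adjusted p = 0.0407). The scaled libraries of the 2 groups did not overlap, and this call was lost when any 1 of 6 libraries was left out (control 1, control 3, JTE 1, JTE 2, wt 1 or S1pr2 null 1), with adjusted p of up to 0.181.

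Of the pan-leukocyte genes 5 of 6 fell. They were Lcp1, an actin-bundling protein (−1.89 ± 0.11), the lysosomal protein gene Laptm5 (−1.81 ± 0.13), the actin regulator gene Coro1a (−1.67 ± 0.20), Aif1, which encodes the macrophage marker Iba1 (−1.61 ± 0.24) and Ptprc (−1.47 ± 0.21). Ptprc held 141, 180 and 159 reads in control explants and 50, 55 and 75 in JTE explants. The sixth, Cd53, held 129, 156 and 150 reads and then 115, 108 and 167 (−0.21 ± 0.13, adjusted p = 0.177 by edgeR), and its libraries overlapped. Its difference widened to −0.37 without JTE 3, with an edgeR adjusted p of 0.0228.

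**Figure D3:**
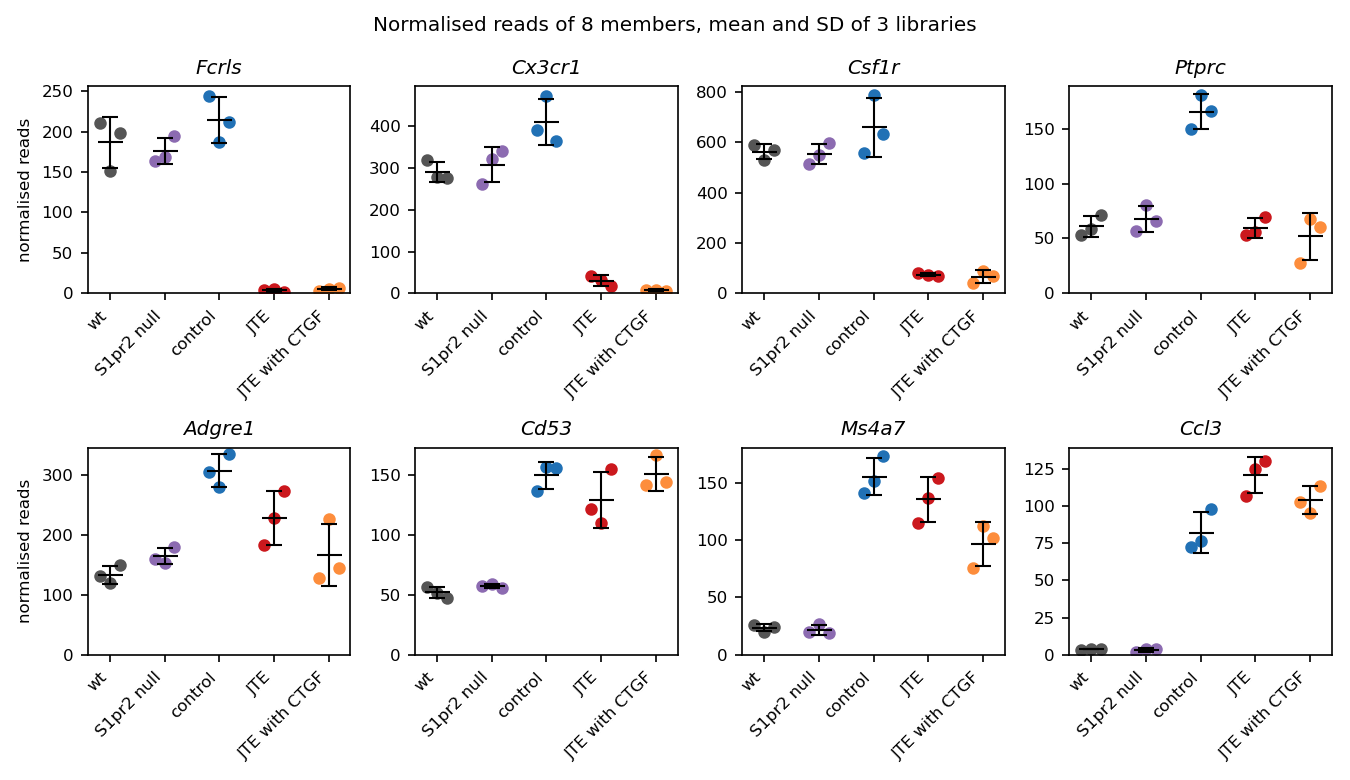
Normalised reads (vertical axes, starting at 0) of 8 members in the 5 groups; points are libraries, and the bars give the mean and SD of 3. Fcrls, Cx3cr1 and Csf1r are near the bottom of their axes in both JTE groups, Ptprc lies near its wt values there, and Cd53, Ms4a7 and Ccl3 remain far above wt.

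All 5 Fc receptor and ITAM genes and all 3 C1q genes fell. Beside Fcrls these were Trem2, a lipid-sensing receptor that signals through Tyrobp (−2.43 ± 0.32), the high-affinity IgG receptor gene Fcgr1 (−1.83 ± 0.21), and the adaptors Fcer1g (−1.22 ± 0.14) and Tyrobp (−1.18 ± 0.12). Tyrobp held 313, 411 and 346 reads in control explants, 145, 154 and 189 in JTE explants and 151, 134 and 136 in wt. C1qa fell by 2.39, C1qb by 1.81 and C1qc by 1.85 on the log2 scale, and the 3 chains, which are encoded side by side on chromosome 4 between 136880129 and 136898803, held 143 to 216 reads each in the JTE libraries. That is below their wt counts of 262 to 451.

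Of the scavenger and pattern receptors Msr1 (−2.44 ± 0.29), Mrc1 (−2.28 ± 0.16), Cd14 (−1.68 ± 0.12) and Lyve1 (−1.36 ± 0.17) fell. Of the 2 that culture had raised, Cd14 held 153, 221 and 226 reads with JTE013 against 26 to 41 in wt, and Msr1 held 57, 51 and 141 against 35 to 51, with the highest value in JTE 3. JTE explants were not tested against wt. Mrc1 and Lyve1, which culture had lowered, dropped further, Mrc1 to 62, 45 and 70 reads. Of the lysosome and effector genes 5 of 6 fell. Cybb, the catalytic subunit of the phagocyte NADPH oxidase, fell by 2.21 ± 0.24 and Mpeg1 by 1.84 ± 0.10, while Ctss (−1.05 ± 0.15), Lyz2 (−0.92 ± 0.12) and Cd68, a macrophage lysosomal membrane protein (−0.49 ± 0.11, edgeR adjusted p = 0.00176), fell less. Lyz2 still held 958, 1101 and 1516 reads in JTE explants, against 280 to 328 in wt. Ms4a7 held 133, 151 and 166 reads and then 109, 134 and 166 (−0.19 ± 0.15, adjusted p = 0.3 by edgeR).

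The chemokine and activation genes went separate ways. Ccl3 rose from 68, 76 and 94 to 101, 122 and 140 reads (0.55 ± 0.14, edgeR adjusted p = 0.00395), without overlap. Ccl4 held 41, 44 and 56 reads and then 26, 47 and 67 (−0.07 ± 0.32), with overlapping libraries. Cd83, a marker of activated antigen-presenting cells, fell by 1.93 ± 0.21. Pf4 held 32, 20 and 38 reads in control explants and 7, 5 and 39 in JTE explants, a difference of −0.88 ± 0.47 (adjusted p = 0.13 by edgeR) that JTE 3 decided: without that library it was −2.30, with an edgeR adjusted p of 0.000282.

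To ask which members fell alike, the libraries were rescaled to the median ratio of 7 core leukocyte genes (Csf1r, Ptprc, Cd53, Laptm5, Tyrobp, Fcer1g and Spi1), and the other 26 members were tested in that scale. With JTE013, 12 of the 26 lay below the core genes, 6 lay above them and 8 did not differ from them by the test. In that scale 2.84% of all genes lay lower and 87.5% higher, since nearly every other gene of the explants fell less than the core genes. Below the core genes were Fcrls (−4.47 ± 0.36), Cx3cr1 (−2.34 ± 0.24), Msr1 (−1.12 ± 0.22), Trem2 (−1.08 ± 0.26), C1qa (−1.01 ± 0.20), Mrc1 (−0.90 ± 0.22) and Cybb (−0.88 ± 0.24), and, by 0.44 to 0.56, Cd83, Lcp1, C1qc, Mpeg1 and C1qb. Above them were Ccl3 (1.93 ± 0.25), Ccl4 (1.27 ± 0.30), Ms4a7 (1.18 ± 0.23), Adgre1 (0.94 ± 0.20), Cd68 (0.90 ± 0.20) and Lyz2 (0.45 ± 0.19). Fcgr1, Cd14, Coro1a, Aif1, Lyve1, Ctss and Pf4 lay between −0.50 and 0.42 and did not pass, as did Cd163 with its few reads.

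The core genes themselves were not uniform. Csf1r lay 1.73 ± 0.21 below the core scale and Laptm5 0.43 ± 0.20 below it, and Cd53 lay 1.17 ± 0.23 above it. With all members as the reference, the smaller departures were lost: the values of C1qb (−0.15), C1qc (−0.19), Mpeg1 (−0.18), Cd83 (−0.28) and Lcp1 (−0.23) no longer passed and neither did that of Laptm5 (−0.17), while Tyrobp (0.48) and Ctss (0.60) then lay above the reference. The deep falls of Fcrls, Cx3cr1, Msr1, Trem2, C1qa, Mrc1 and Cybb and the 6 upward departures passed under both references.

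**Figure D4:**
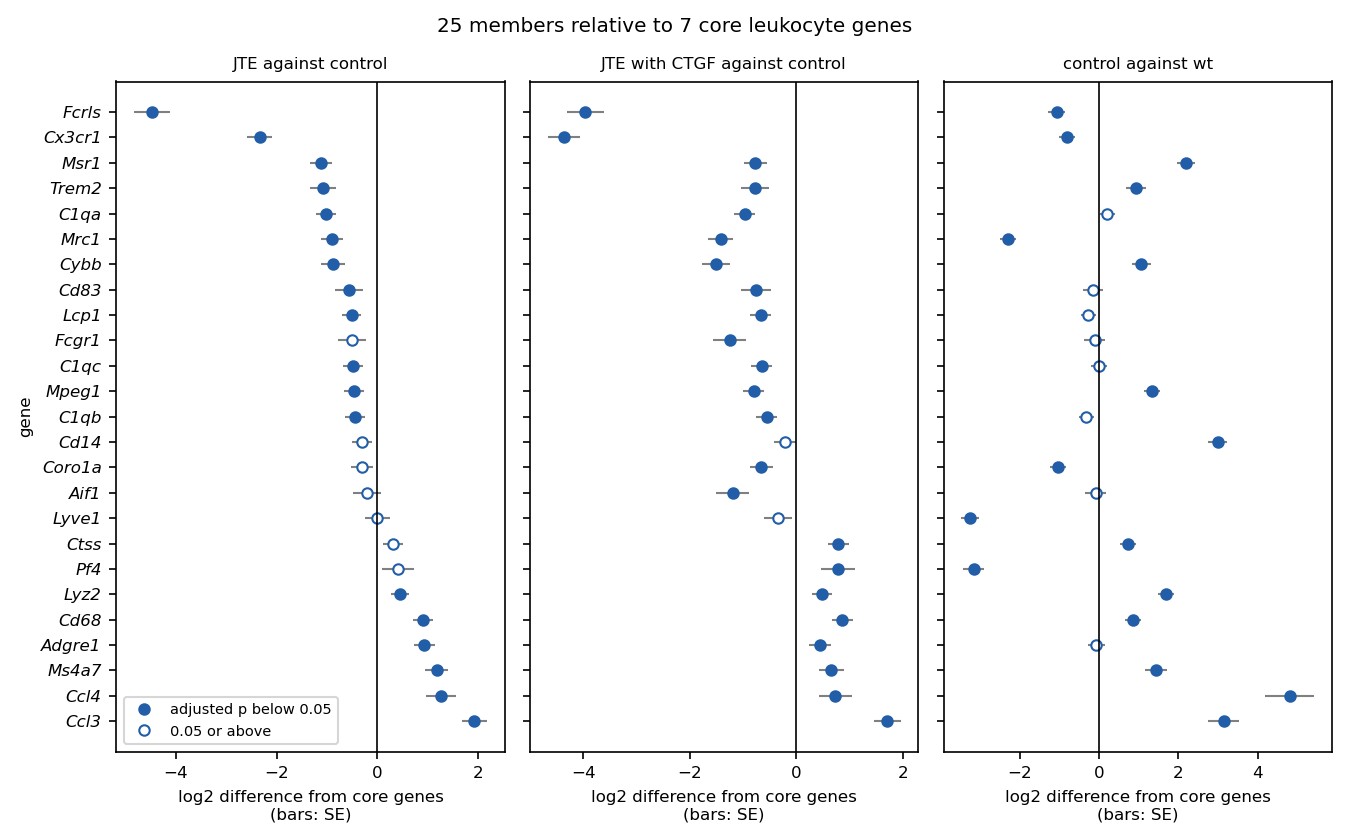
Log2 difference of 25 members from the 7 core leukocyte genes in 3 comparisons; bars are SE and open symbols did not pass an adjusted p of 0.05. Fcrls and Cx3cr1 lie lowest in both JTE panels, whereas in control against wt the lowest are Lyve1 and Pf4; Cd163 is left out, and the first and second panels share the control libraries.

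In the culture comparison the same scale placed 7 of the 26 members below the core genes and 11 above them, with 87.1% of all genes lower and 3.79% higher. The lowest were Cd163, Lyve1 (−3.26 ± 0.22), Pf4 (−3.16 ± 0.27) and Mrc1 (−2.31 ± 0.20), followed by Fcrls (−1.07 ± 0.22), Coro1a (−1.03 ± 0.20) and Cx3cr1 (−0.80 ± 0.20). The highest were Ccl4 (4.82 ± 0.62), Ccl3 (3.15 ± 0.39), Cd14 (3.00 ± 0.24) and Msr1 (2.20 ± 0.24). Aif1, Adgre1, Fcgr1, Cd83, Lcp1 and the 3 C1q genes did not differ from the core genes by the test in this comparison. Of the core genes themselves, Csf1r (−1.07 ± 0.19) and Laptm5 (−0.50 ± 0.19) lay below the scale here.

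The third comparison concerned CTGF. Against control explants, JTE with CTGF gave 28 members lower and 0 higher (33% and 28.1% of all genes, 61.1% in either direction), with a median of −1.89, or −1.88 without Cd163. In those 28 members the libraries did not overlap, against 34.4% of all genes without overlap in the lower direction and 30.4% in the higher. Cx3cr1 was lowest at 8, 8 and 4 reads (−5.71 ± 0.26), and Fcrls held 3, 5 and 6 reads (−5.28 ± 0.25). Csf1r held 36, 78 and 59 reads (−3.30 ± 0.17). Ccl3, at 90, 83 and 96 reads, did not pass against control explants (0.34 ± 0.15, adjusted p = 0.0587 by edgeR), and Cd53 was level (0.01 ± 0.13). Ms4a7, which had not passed with JTE013 alone, was lower here (−0.69 ± 0.16, edgeR adjusted p = 0.00126). In the scale of the core genes 15 of the 26 members lay lower and 8 higher, with 3.39% and 84.6% of all genes, and with all members as the reference 7 lay lower and 8 higher.

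The direct comparison of JTE with CTGF with JTE changed few members: 5 were lower and 1 higher, with 16.8% and 13.6% of all genes lower and higher (30.4% in either direction), and 0 passed the criterion of the study (1.74% of all genes). Cx3cr1 fell from 40, 32 and 18 to 8, 8 and 4 reads (−1.95 ± 0.40, edgeR adjusted p = 0.00147), and the libraries did not overlap. Ms4a7 fell by 0.49 ± 0.16 without overlap (edgeR adjusted p = 0.0275). These were the 2 members without overlap in the lower direction, with 0 in the higher (20.6% and 19.6% of all genes). Aif1 (−0.92), Fcgr1 (−0.76) and Mpeg1 (−0.32) were lower and Ctss (0.49) higher with overlapping libraries and edgeR adjusted p of 0.0226 to 0.0459. In the scale of the core genes Cx3cr1 alone departed (−2.02 ± 0.37), with 3.95% of all genes lower and 1.6% higher; 2 members departed without JTE with CTGF 1 or 3 and 3 without JTE 3. The count of 6 came down to 1, that of Cx3cr1, without JTE 2 or when only these 2 groups were fitted, to 3 with DESeq2 (Cx3cr1, Aif1 and Ctss) and to 3 without JTE with CTGF 3. Without JTE 3 it was again 6, but with 2 lower and 4 higher. Without JTE with CTGF 2 it was 7, all lower: Aif1, Fcgr1 and Ctss no longer passed, and Adgre1 (−0.74), Mrc1 (−0.73), Coro1a (−0.72) and Cybb (−1.05) did.

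The fourth comparison was that of the libraries labelled S1pr2 null with wt. Of the 33 members 3 were lower and 2 higher, with 13.3% and 12.6% of all genes lower and higher, and the median log2 fold change was 0.08. The count of 5 was 3 without wt 2, wt 3 or S1pr2 null 1, and 11 when only these 2 groups were fitted. In the scale of the core genes Cd163, C1qa, Ctss and Mpeg1 lay lower and 0 of 26 members higher, with 11.7% and 1.4% of all genes; this count of 4 came to 1 or 2 without wt 1, wt 2, S1pr2 null 2 or S1pr2 null 3. Cd163 held 4, 5 and 12 reads against 14, 27 and 15 in wt (−1.44 ± 0.45, edgeR adjusted p = 0.0327). C1qa held 251, 281 and 290 against 393, 451 and 377 (−0.60 ± 0.16, edgeR adjusted p = 0.0098), while C1qb (0.10 ± 0.13) and C1qc (0.06 ± 0.11) did not pass. Mpeg1 was lower by 0.39 ± 0.12 (edgeR adjusted p = 0.0225).

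The 2 members that were higher, Lyve1 and Mrc1, belong to the scavenger and pattern receptors. In that group Cd163 was lower, as given above, and Msr1 (0.80 ± 0.38) and Cd14 (−0.06 ± 0.22) did not pass the test. Lyve1 held 527, 599 and 787 reads against 425, 372 and 417 in wt (0.62 ± 0.10, edgeR adjusted p = 0.000321) and Mrc1 868, 862 and 1181 against 690, 530 and 676 (0.58 ± 0.11, edgeR adjusted p = 0.000716), both without overlap. In all, 9 members lay higher and 4 lower without overlap, with 22.5% and 23.8% of all genes. In the same libraries all 5 genes of a list of spleen mesenchyme factors were higher than in wt, beside 12.6% of all genes. Their summed level was 5271 to 5984 normalised reads against 2803 to 3521. Of 6 mast cell genes 5 were lower, beside 13.3% of all genes. The part of adjoining tissue in the values of these members was not tested. None of the receptors that fell most with JTE013 passed the test here. Csf1r held 525, 595 and 708 reads (−0.02 ± 0.12), Fcrls 167, 183 and 231 (−0.09 ± 0.14) and Cx3cr1 267, 348 and 405 (0.08 ± 0.14). A p that misses the threshold does not show that these values were equal.

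The JTE response was set against that of the S1pr2 null label by the difference of the 2 responses. It was below 0 in 27 members and above 0 in 0 by the test, where 21.5% of all genes were lower and 21.5% higher (42.9% in either direction). In the scale of the core genes 5 of 26 members lay lower and 6 higher, with 1.36% and 87.3% of all genes. The antagonist was applied to explants in culture and the null label concerns fresh tissue, so that the setting and the way of removing S1pr2 cannot be told apart in this contrast.

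Other genes of the myeloid lineage, from a list of 48 of which 47 were tested, gave 38 lower and 4 higher with JTE013 (median −1.47, or −1.42 with genes without a read in a group set at their bound). Of all genes tested, 26.2% were lower and 25.9% higher there. Gpr34, a receptor of microglia, held 9, 10 and 5 reads in control explants and 0 in every JTE library, at least 8.28-fold lower against a floor of 3 reads over the group. Cbr2 went from 18, 18 and 13 reads to 0, 0 and 1 (ratio 50.7, counting interval 8.69 to 2040). Tmem119 (0.51 ± 0.10) and Cd300a (0.50 ± 0.14) rose. In culture itself the list gave 28 higher and 5 lower, beside 28.5% and 29.3% of all genes. F13a1, a macrophage transglutaminase gene, fell from 645, 608 and 614 to 36, 34 and 39 reads, and the complement receptor gene C5ar1 rose by 2.86 ± 0.24.

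**Figure D5:**
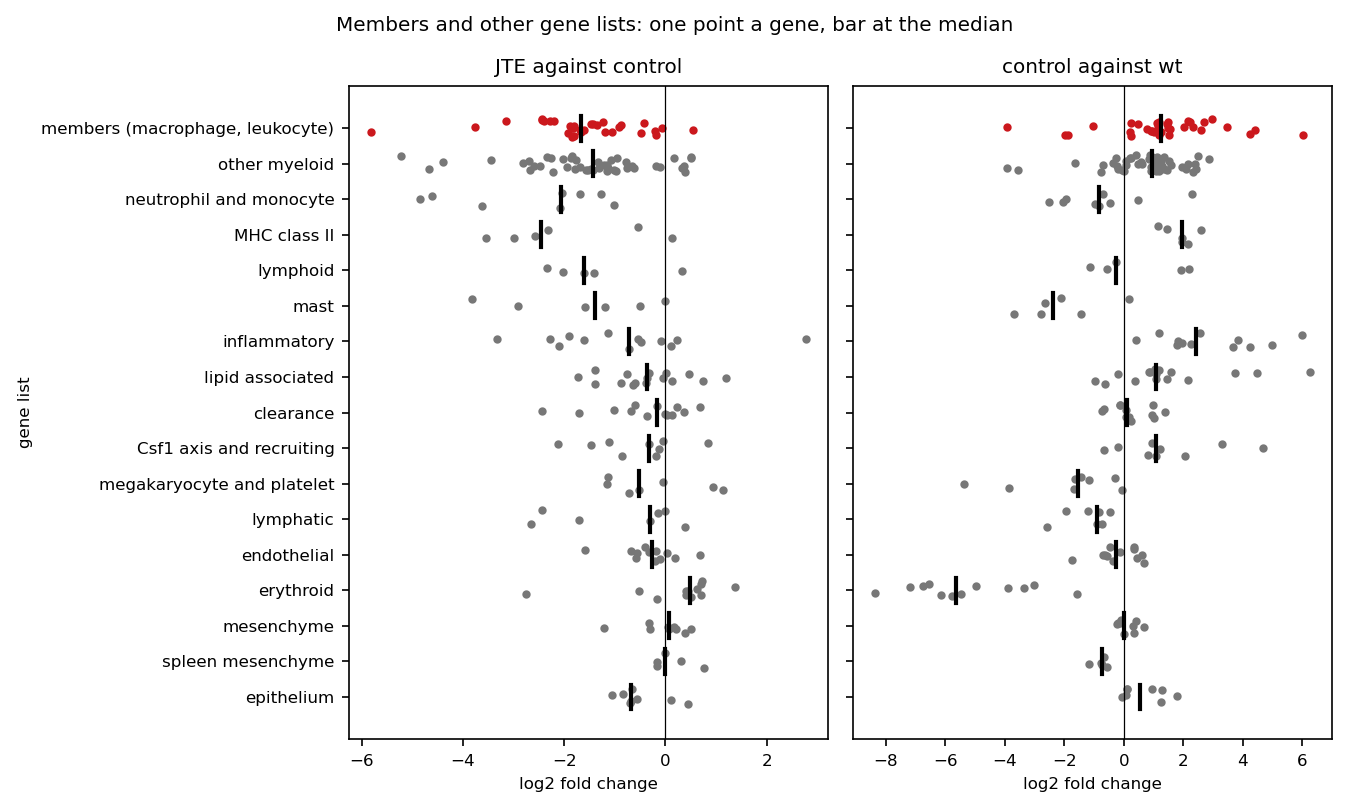
Log2 fold change of every tested gene of the members and of the other gene lists for JTE against control explants (left) and control against wt (right); each point is a gene and the bar is the median, and genes without a read in a group are left out of that panel. The members (red) and the other myeloid, neutrophil and monocyte, MHC class II, lymphoid and mast lists have medians below −1 with JTE013, whereas the endothelial, mesenchyme and epithelium medians are −0.27, 0.07 and −0.67.

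Antigen-presentation genes fell with JTE013 in 4 of 6 cases (median −2.45), where 26.2% of all genes fell, led by the invariant chain gene Cd74, which went from 373, 280 and 347 to 10, 26 and 53 reads (−3.55 ± 0.29). Neutrophil and monocyte genes fell in 6 of 9 cases (median −2.09), lymphoid genes in 3 of 5 and mast cell genes in 2 of 6, the last near the share of all genes. Their markers were sparse: only 5 of the 14 lymphoid genes counted had enough reads to be tested. Endothelial genes fell in 7 of 12 cases and rose in 1 (median −0.27), mesenchyme genes fell in 3 and rose in 2 of 9 (median 0.07), and epithelial genes fell in 6 of 8 (median −0.67). The part of these cells in the values of the members was not tested.

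Genes of phagocytic clearance and of lipid-laden macrophages included some that fell and some that rose, beside 26.2% and 25.9% of all genes, and the numbers that rose were near that share. In the clearance list 6 of 13 fell and 3 rose, with Stab2 (−2.43 ± 0.34) and the fatty acid transporter gene Cd36 (−1.70 ± 0.18) at the low end and the bridging molecule gene Gas6 (0.36 ± 0.08) and Itgb5 (0.68 ± 0.08) at the high end. In the lipid-associated list 8 of 16 fell and 4 rose. Gpnmb went from 1054, 1433 and 1714 to 2756, 2629 and 4682 reads (1.20 ± 0.16), having stood at 28, 15 and 17 in wt, and the haem oxygenase gene Hmox1 rose by 0.74 ± 0.16. Spp1 (−1.39 ± 0.13) and the integrin gene Itgax (−1.73 ± 0.48) fell. In wt Spp1 held 12848, 10078 and 10389 reads, far above the 654, 554 and 606 of Csf1r. Which cells the reads of these lists came from was not tested. Of 13 inflammatory genes 7 fell, with the interleukin-1 antagonist gene Il1rn (−3.32 ± 0.25) and Cxcl10 (−2.28 ± 0.42) lowest, and Cxcl2, a neutrophil chemokine, rose from 6, 6 and 4 to 33, 25 and 59 reads (2.78 ± 0.38).

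Among ligands and recruiting factors 4 of 9 genes fell and 1 rose, with 26.2% and 25.9% of all genes. The monocyte chemokine genes Ccl2 (−2.12 ± 0.37) and Ccl7 (−1.46 ± 0.40) were lowest, and Cxcl12 rose (0.85 ± 0.08). The ligands of the receptors above were looked up after their values had been seen. Csf1, a ligand of Csf1r, went from 654, 698 and 781 to 316, 310 and 609 reads (−0.85, edgeR adjusted p = 0.000168), Il34, the other ligand, did not pass (−0.33, edgeR adjusted p = 0.121), and Cx3cl1, the ligand of Cx3cr1, fell by 1.11 on the log2 scale (edgeR adjusted p = 6.88e-06).

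The genes whose levels followed the mean of the 7 core genes most closely over the 15 libraries, among protein-coding genes that are not members, were Myo1f (r = 0.979), Evi2a (0.975), Tlr7 (0.97), Wdr1 (0.968), Ccl9 and Carhsp1 (both 0.962), Igsf6 (0.961), Phactr1 (0.96), Ltb (0.959), Nckap1l, Hcls1 and Tmsb4x (each 0.958), Ncf1 (0.957), and Anxa1 and Clec12a (both 0.956). These are correlations of log2 values over libraries of 5 groups and describe the group pattern. Among the members outside the core, C1qc (0.979), Cybb (0.945), C1qa and C1qb (both 0.939), Lcp1 (0.927) and Cd83 (0.926) were the most alike. The least alike were Ccl3 (−0.04), Cd163 (0.02), Ccl4 (0.17), Pf4 (0.20) and Ms4a7 (0.21). Cd53, although a core gene, had r = 0.138 with the mean it is part of.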

How the data were processed

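Per the submitters' processing notes and the methods of the study, reads were demultiplexed with bcl2fastq 1.8.4, aligned to mm10 with GSNAP and counted per gene with featureCounts 1.4.6, and the authors tested them with DESeq2 1.6.2. The libraries were made with a stranded kit, and whether the counting used the strand is not given in the sources used here. The authors deposited whole-number read counts per gene, which were used as deposited. No column was without a sample.

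Groups were taken from the labels. Counts were scaled by TMM and tested with the quasi-likelihood test of edgeR 4.0.16 (R 4.3.3) over all 15 libraries, with Benjamini-Hochberg adjustment over the 16245 genes that passed edgeR's filter on low counts and a threshold of 0.05. The core gene scale replaced library scaling by size factors from the 7 core genes. Ratios of few reads have exact 95% intervals that, like the floor of 3 reads, cover counting error only. Alternatives were DESeq2 1.42.0 and its size factors, no filter, only the groups compared, the replicate number as a block, all members as reference, the criterion of the study, omission of members of possible other source, and leaving out each library. For core gene departures, 10 residual degrees of freedom was an alternative chosen after seeing the data.

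The members and lists were chosen with earlier results of these data known. All members may be named. From each other list up to 4 genes are named, the 2 lowest and 2 highest among those that passed, and the 15 protein-coding genes most alike by Pearson r of log2 CPM (pseudocount 0.5). Csf1, Il34, Cx3cl1, Cd3d, Cd3e and Cd8a fall outside this rule and were chosen after their values were seen. The methods of the study describe the pooled samples of a condition as independent and as biological replicates. The labels do not say whether libraries came from separate litters or cultures. The p-values therefore measure the spread between these libraries, and how much of it lies between litters is not known.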

Additional observations from a re-analysis of the deposited data

Results flagged for a closer look

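The response to JTE013 in explants and the difference between the libraries labelled S1pr2 null and wt differed in 27 of the 33 members, by an edgeR test of the difference of the 2 log2 fold changes (21.5% of all genes lay lower and 21.5% higher). The widest differences, JTE response minus S1pr2 null difference on the log2 scale, were Fcrls −5.73, Cx3cr1 −3.85, Msr1 −3.25, Csf1r −3.12, Mrc1 −2.87, Cybb −2.48, Trem2 −2.25, Lcp1 −2.13 and Lyve1 −1.98. In the middle were Cd83 −1.96, C1qb −1.91, C1qc −1.91, Spi1 −1.85, Coro1a −1.82, C1qa −1.79, Fcgr1 −1.76, Aif1 −1.73 and Laptm5 −1.72. The narrowest were Cd14 −1.62, Ptprc −1.62, Fcer1g −1.50, Mpeg1 −1.44, Tyrobp −1.26, Lyz2 −0.99, Adgre1 −0.72, Ctss −0.62 and Cd68 −0.59. The Ctss difference (adjusted p = 0.0448 by edgeR) lost its call when any 1 of 11 of the 15 libraries was left out, that of Adgre1 with any 1 of 4 (wt 2, S1pr2 null 3, control 3 or JTE 1) and that of Cd68 without S1pr2 null 2. Ctss kept its call without JTE 3 and without each JTE with CTGF library. The libraries labelled S1pr2 null were fresh tissue and the JTE libraries were explants, so that the setting and the way of removing S1pr2 cannot be told apart. Cd163, Pf4, Ccl4, Cd53, Ms4a7 and Ccl3 did not pass the test of the difference.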

How the results depend on the processing

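The counts of members called for JTE against control, JTE with CTGF against control and control against wt moved by less than 1.5 times under every alternative run. Over the omission of each library they were 27 to 30, 28 to 29 and 29 to 31, and the difference of responses gave 25 to 29. For S1pr2 null against wt, 5 members called became 8 with no filter, 11 with only the libraries compared and 0 by the criterion of the study, and 3 to 6 with a library left out. For JTE with CTGF against JTE, 6 became 3 with DESeq2, 1 with only the libraries compared and 0 by that criterion, and 1 to 7 with a library left out. Departures from the core genes for S1pr2 null against wt were 4, but 1 with 10 residual degrees of freedom (added after seeing the data) and 2 with all members as the reference. For JTE with CTGF against control they were 23, and 15 with all members as the reference. With a library left out, departures ranged from 1 to 4 (null), 14 to 18 (JTE), 19 to 24 (JTE with CTGF against control), 1 to 3 (JTE with CTGF against JTE) and 17 to 19 (control against wt). The core gene fit had an infinite prior degrees of freedom, so its p-values are smaller than 10 residual degrees of freedom would give.

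Correlations of deviations between libraries of the same replicate number ran from −0.323 to 0.499 over all pairs of groups. For control with JTE they were 0.0182, 0.305 and 0.499. Libraries of unlike number were not compared, so that a pairing of samples by number was not tested. With the replicate block, departures for JTE with CTGF against JTE went from 1 to 2 and members called there from 6 to 5, and 28 were called for JTE against control as without it.

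With all members as the reference, the Lyve1 difference from the core in JTE with CTGF against control was 0.0837 in place of −0.34. The other reversals came from leaving out a library, and the cause was not tested: Pf4 relative to the core genes ranged from −0.81 to 0.81 for JTE against control and from −0.025 to 1.6 for JTE with CTGF against JTE, Pf4 itself from −0.16 to 1.81 there, C1qa from −0.0948 to 0.381, Msr1 from −0.0771 to 0.94, Cd53 in JTE with CTGF against control from −0.067 to 0.0563, and Ccl4 in JTE against control from −0.36 to 0.19. A further 127 member results had no call in any fit, and 54 of them changed sign in at least 1. Few reads limit Cd163, Ccl3 and Ccl4 in fresh tissue and Fcrls and Cx3cr1 in JTE explants.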
